A study of Mus musculus with 3 samples.

Results

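Interleukin-1 (IL-1) family and inflammasome genes were examined in the single cells of 3 neuroblastoma tumors of TH-MYCN mice. The members were chosen by name and numbered 10 of the 31053 genes in the files. They comprise the ligands Il1a, Il1b and Il18, the receptor antagonist Il1rn, the receptors Il1r1, Il1r2 and Il1rap, the IL-18 binding protein Il18bp, the sensor Nlrp3 and the protease Casp1. TH-MYCN mice carry the human MYCN oncogene under the rat tyrosine hydroxylase promoter, which drives it in sympathetic neural crest derived cells. All 3 mice were heterozygous for the transgene and untreated as far as the labels state, and their tumors 1, 2 and 3 were taken at 62, 79 and 63 days of age. There was 1 tumor per mouse and a single group of samples, so that every comparison was between cell classes within these whole, enzymatically dissociated tumors and not between treatments or with normal tissue. Any change made to RNA during dissociation is shared by all libraries and cannot be told apart from the state in the tumor.

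IL-1β and IL-18 are made as inactive precursors. The sensor NLRP3 assembles with the adaptor ASC, encoded by Pycard, and activates caspase-1, which cleaves both precursors and gasdermin D, the pore through which they leave the cell. IL-1α and IL-1β signal through IL1R1 with its partner IL1RAP and the adaptor MYD88 to NF-κB, whereas IL1RN occupies IL1R1 without a signal, IL1R2 binds IL-1 as a decoy that does not signal, and IL18BP neutralizes IL-18. In tumors, IL-1 from myeloid cells is known to act on stromal cells and to recruit neutrophils. RNA reports the precursors and not their cleavage or release.

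On build GRCm38, Il1a (129299610 to 129309972) and Il1b (129364570 to 129371139) are neighbors on the minus strand of chromosome 2, and Il1rn lies on the plus strand of the same chromosome from 24336853 to 24351494. The receptor genes Il1r2 (40074079 to 40125231) and Il1r1 (40225080 to 40317257) follow each other on the plus strand of chromosome 1, and Il1rap lies on chromosome 16 from 26581704 to 26730117. Nlrp3 lies on chromosome 11 from 59541568 to 59566956. Chromosome 9 carries Casp1, from 5298517 to 5307265, and Il18, from 50554827 to 50581840. Il18bp lies on the minus strand of chromosome 7 from 102014885 to 102018690.

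All 10 members matched the RefSeq table of promoters for GRCm38.p6, with 14 start sites between them. The 250 bases before 1 start site are given 5′ to 3′ for the neighboring ligand genes Il1a and Il1b, for Il1r2, whose RNA was most concentrated in neutrophil-like cells, and for Il18bp, whose RNA was most concentrated in Apoe+-like cells. Capitals mark matches to the motifs searched, and all other bases are in lower case. The windows are chr2:129309973-129310222 on the minus strand for Il1a, chr2:129371140-129371389 on the minus strand for Il1b, chr1:40085843-40086092 on the plus strand for Il1r2 and chr7:102018233-102018482 on the minus strand for Il18bp. The start sites used for Il1r2 and Il18bp lie inside their GENCODE genes.
Il1a: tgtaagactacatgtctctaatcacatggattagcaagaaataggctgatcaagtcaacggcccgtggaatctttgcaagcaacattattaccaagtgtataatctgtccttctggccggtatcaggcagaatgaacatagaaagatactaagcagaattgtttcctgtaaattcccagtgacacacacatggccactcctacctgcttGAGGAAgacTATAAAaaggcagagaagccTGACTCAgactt
Il1b: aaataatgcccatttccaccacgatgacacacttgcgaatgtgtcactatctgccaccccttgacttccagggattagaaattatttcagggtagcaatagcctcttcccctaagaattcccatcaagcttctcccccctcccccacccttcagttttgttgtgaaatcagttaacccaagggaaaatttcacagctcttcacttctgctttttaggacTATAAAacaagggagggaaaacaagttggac
Il1r2: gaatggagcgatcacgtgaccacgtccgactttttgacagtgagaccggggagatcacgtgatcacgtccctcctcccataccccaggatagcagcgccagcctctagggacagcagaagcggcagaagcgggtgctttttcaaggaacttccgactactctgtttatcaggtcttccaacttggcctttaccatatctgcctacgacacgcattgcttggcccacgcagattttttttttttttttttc
Il18bp: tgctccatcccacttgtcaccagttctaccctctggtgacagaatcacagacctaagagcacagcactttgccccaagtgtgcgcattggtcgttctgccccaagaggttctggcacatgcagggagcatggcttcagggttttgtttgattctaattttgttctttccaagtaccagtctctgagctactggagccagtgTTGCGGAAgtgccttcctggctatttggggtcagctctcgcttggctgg

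A TATA box (TATAAA, sense strand only) stood at -32 to -27 before the Il1a start and at -31 to -26 before the Il1b start, and in no other of the 14 member windows. It was present in 7.59% of all 32851 windows of this length. The other motifs were searched on both strands. The Il1a window also held a PU.1 core (GAGGAA) at -41 to -36, present in 23.3% of all windows and in 3 member windows, and an AP-1 motif (TGANTCA) at -12 to -6, present in 6.75% of all windows and in 2 member windows. Il18bp had a C/EBP motif (TTGCNNAA) at -49 to -42, which was found in 9.56% of all windows and in 2 member windows. The NF-κB motif (GGG, any 2 bases, then TTTCC) was in 1.41% of all windows and in 1 member window, at -51 to -42 before 1 of the Il1rn starts. None of the motifs searched was in the Il1r2 window. A match is a match of letters and not a measured binding site.

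The 5650 barcodes that the authors kept in their normalized files were taken as cells, with 1914, 1221 and 2515 in tumors 1, 2 and 3 and medians of 4282.5, 1594 and 1816 unique molecular identifiers (UMIs) per cell. The clusters were named from marker genes, and the members and 78 related genes were held out of the genes that formed them. The 320 neutrophil-like cells (242, 56 and 22 per tumor, median 2453 UMIs) expressed 10 of 10 neutrophil markers in each tumor, with a summed level of 46230.3 to 144724 CPM (counts normalized to the total UMIs of the summed cells), against 53.3 to 811 CPM in the macrophage subsets. The same markers label granulocytic myeloid-derived suppressor cells, which these RNAs do not separate from neutrophils. Macrophage-like cells formed Ccr2+-like (236, 10 and 16 cells), Pecam1+-like (254, 36 and 58 cells) and Apoe+-like subsets (153, 61 and 121 cells). Macrophage markers summed to 456 to 873 CPM in neutrophil-like cells and to 3543 to 7769.9 CPM in these subsets. Tumor-like cells numbered 3416 and expressed 9 of 9 sympathetic and neuroblast markers in each tumor. Transcripts of these markers also reached 1053 CPM in neutrophil-like and 975 CPM in Apoe+-like cells of tumor 3, and their part in the levels below was not tested. Kept barcodes shared between libraries numbered 3 for tumors 1 and 2, 0 for tumors 1 and 3 and 1 for tumors 2 and 3.

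Counts of a class were summed within each tumor, and the tumor is the replicate (n = 3). A fold change comes from edgeR's quasi-likelihood test on the sums of all 4 myeloid classes, as log2 with its SE and a Benjamini-Hochberg adjusted p over the 4776 genes that passed the filter on low counts. Of the 10 members, 8 passed this filter, and Il1a and Il1r1 did not. Il1r2 and Il1rap passed it only through the neutrophil-like sums and Il18bp only through the Apoe+-like sums, so these had to differ, and counts that include them are descriptions. Intervals on counts and shares are exact at 95% and cover counting error only. The SE of a fold change was derived from the test, as the absolute log2 fold change over the square root of its F statistic.

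**Figure D1:**
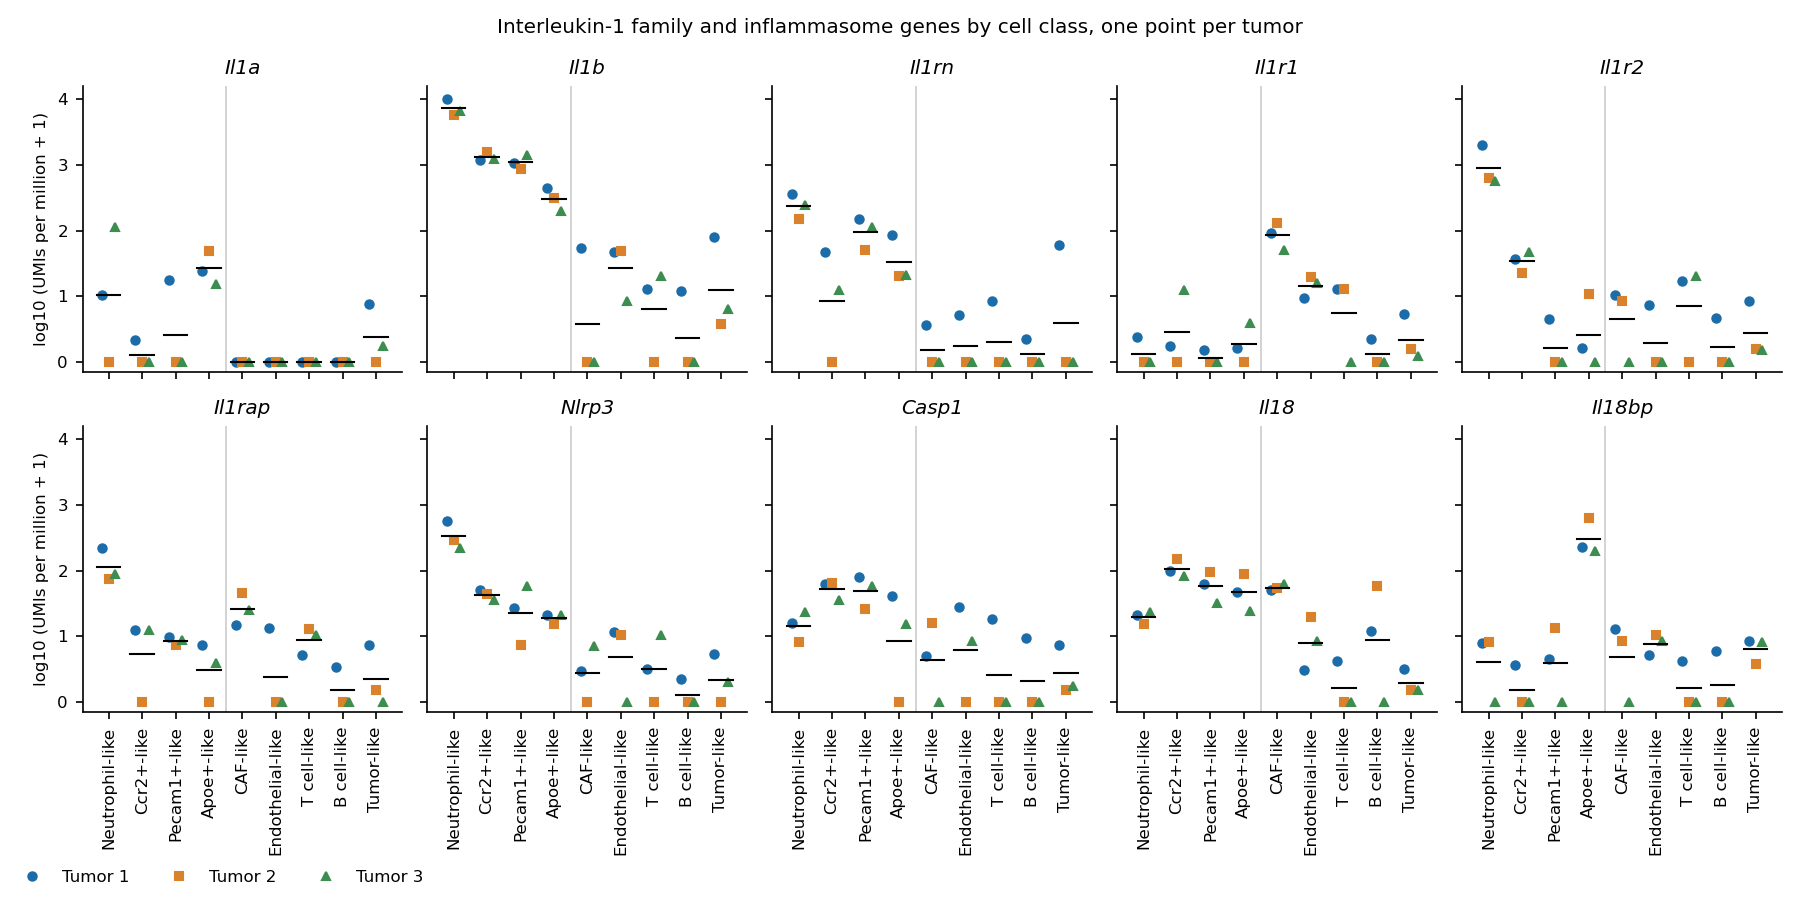
Level of each member by cell class, as log10 of CPM plus 1, with 1 point per tumor and a line at the mean of the plotted values. Il1b, Il1r2 and Nlrp3 are highest in neutrophil-like cells of every tumor, Il18bp in Apoe+-like cells and Il1r1 in CAF-like cells.

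Il1b, the ligand that monocytes and neutrophils release on activation, was the member with the most UMIs in neutrophil-like cells, where 7374, 783 and 296 UMIs gave 10029.5, 5761 and 6629.9 CPM in tumors 1, 2 and 3. Ccr2+-like cells had 1189.9, 1583 and 1211 CPM, Pecam1+-like cells 1072, 851 and 1405 CPM, and Apoe+-like cells 438, 315 and 199 CPM. The lowest neutrophil-like sum was above the highest sum of any macrophage subset, Ccr2+-like and Pecam1+-like sums overlapped, and both lay above the Apoe+-like sums. Il1b was higher in neutrophil-like cells than in the mean of the 3 subsets by a log2 fold change of 3.54 ± 0.33 (SE, adjusted p = 1.19e-05). Against single subsets it was higher by 2.80 ± 0.48 for Ccr2+-like (adjusted p = 0.00422), 3.08 ± 0.48 for Pecam1+-like (adjusted p = 0.00151) and 4.76 ± 0.52 for Apoe+-like cells (adjusted p = 0.000117). Outside the myeloid classes, the lone sum of natural killer (NK)-like cells had 275 CPM, and tumor-like cells had 78.3, 2.78 and 5.32 CPM. The summed neutrophil markers in tumor-like cells ranged from 25.3 to 323 CPM, and their part in these low levels was not tested.

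In that comparison with the mean of the macrophage subsets, 5 of the 8 tested members were higher and 0 lower, where 10.1% of the 4776 genes were higher and 8.0% lower. The 5 were Il1b, Il1rn, Il1r2, Il1rap and Nlrp3. Casp1, Il18 and Il18bp did not pass.

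Il1a, the constitutively active ligand, was sparse. Of its 110 UMIs in kept cells, neutrophil-like cells of tumors 1, 2 and 3 held 7, 0 and 5, Apoe+-like cells 37, 10 and 5, Pecam1+-like cells 33, 0 and 0, and Ccr2+-like cells 3, 0 and 0. As levels, this was 9.52, 0 and 112 CPM in neutrophil-like and 23.3, 48.5 and 14.4 CPM in Apoe+-like cells, which overlap. Apoe+-like cells had Il1a in all 3 tumors, and neutrophil-like cells in tumors 1 and 3.

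Il1rn, which blocks IL1R1, stood at 365, 147 and 246 CPM in neutrophil-like cells and at 151, 50.4 and 113 CPM in Pecam1+-like cells. Apoe+-like cells had 85.0, 19.4 and 20.2 CPM, and Ccr2+-like cells 46.9, 0 and 11.6 CPM on 123, 0 and 1 UMIs. The neutrophil-like and Pecam1+-like ranges overlapped, although the neutrophil-like sum was the higher in each tumor. Il1rn was higher in neutrophil-like cells than in the subset mean (2.52 ± 0.57, adjusted p = 0.00752), than in Ccr2+-like cells (3.26 ± 0.86, adjusted p = 0.0309) and than in Apoe+-like cells (2.71 ± 0.79, adjusted p = 0.0306). Against Pecam1+-like cells the difference was 1.58 ± 0.76 (adjusted p = 0.239), and 1.53 ± 0.37 (adjusted p = 0.00533) with each tumor as a block. Without tumor 2 or without tumor 3 the Il1rn call against the subset mean was lost (adjusted p = 0.0551 and 0.0675), as was that against Apoe+-like cells (0.138 and 0.196).

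The antagonist and the ligand differed in their balance between classes. Neutrophil-like cells held 3.63, 2.55 and 3.72 Il1rn UMIs per 100 Il1b UMIs in tumors 1, 2 and 3. Pecam1+-like cells held 14.1, 5.93 and 8.01, and Apoe+-like cells 19.4, 6.15 and 10.1. Both macrophage subsets therefore had more Il1rn relative to Il1b than neutrophil-like cells in 3 of 3 tumors, a comparison in which an exact sign-flip test over 3 tumors cannot go below a two-sided p of 0.25. Ccr2+-like cells, at 3.94, 0 and 0.962, overlapped neutrophil-like cells. The interval for tumor 2 was wide in the small subsets, from 2.51 to 12.01 in Pecam1+-like and from 1.63 to 16.5 in Apoe+-like cells.

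**Figure D2:**
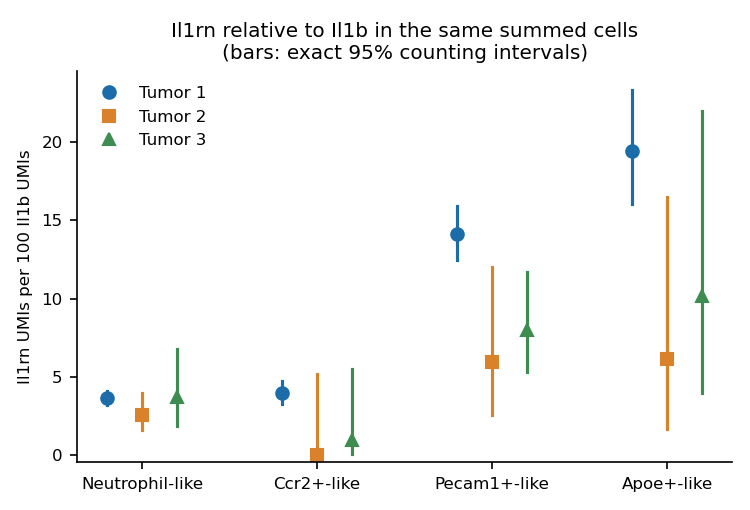
Il1rn UMIs per 100 Il1b UMIs in the summed myeloid cells of each tumor, with exact 95% counting intervals as bars. Neutrophil-like points lie between 2.55 and 3.72, below every Pecam1+-like and Apoe+-like point.

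Among the receptors, Il1r2, the decoy, was highest by far in neutrophil-like cells. Their 1491, 86 and 25 UMIs gave 2028, 633 and 559.96 CPM, whereas Ccr2+-like cells had 36.3, 21.7 and 46.6 CPM on 95, 1 and 4 UMIs. Pecam1+-like cells had 7 UMIs in all (3.57, 0 and 0 CPM) and Apoe+-like cells 3 UMIs in all (0.630, 9.70 and 0 CPM). The highest macrophage sum, 46.6 CPM, lay far below the lowest neutrophil-like sum. Il1r2 was higher in neutrophil-like cells than in the subset mean (adjusted p = 6.04e-06), and higher than in Ccr2+-like cells by 5.27 ± 0.94 (adjusted p = 0.00501), than in Pecam1+-like cells (adjusted p = 0.000453) and than in Apoe+-like cells (adjusted p = 0.00029). The summed neutrophil markers in Ccr2+-like cells ranged from 105 to 811 CPM, and their part in the Il1r2 level there was not tested.

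Il1rap, the co-receptor, had 224, 73.6 and 89.6 CPM in neutrophil-like cells on 165, 10 and 4 UMIs. The macrophage subsets ranged from 0 to 11.6 CPM and did not overlap the neutrophil-like sums. The difference from the subset mean was 4.56 ± 0.52 (adjusted p = 5.66e-05), with 3.99 ± 0.79 against Ccr2+-like (adjusted p = 0.00865), 4.48 ± 0.75 against Pecam1+-like (adjusted p = 0.00226) and 5.21 ± 0.78 against Apoe+-like cells (adjusted p = 0.000758). CAF-like cells (cancer-associated fibroblasts) came next, at 14.1, 45.4 and 24.4 CPM.

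Il1r1, the signaling receptor, followed another pattern. CAF-like cells had 91.6, 128 and 48.8 CPM on 136, 17 and 8 UMIs, and endothelial-like cells 8.44, 18.9 and 14.99 CPM on 4, 2 and 2 UMIs. The summed myeloid cells of the 3 tumors held 1 UMI in neutrophil-like, 3 in Ccr2+-like, 1 in Pecam1+-like and 2 in Apoe+-like cells. The CAF-like sums lay above those of every other class. Over the pooled neutrophil-like sums, 3 counts would be 3.28 CPM, so lower levels of Il1r1 could not be measured at this depth.

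Nlrp3, the inflammasome sensor, had 562, 294 and 224 CPM in neutrophil-like cells. Ccr2+-like cells had 49.99, 43.4 and 34.9 CPM, Pecam1+-like cells 26.0, 6.30 and 58.2 CPM, and Apoe+-like cells 20.1, 14.5 and 20.2 CPM. The neutrophil-like sums stood above those of all subsets. Ccr2+-like sums lay above Apoe+-like sums, and Pecam1+-like sums overlapped both. The difference was 3.95 ± 0.47 from the subset mean (adjusted p = 8.74e-05), 3.34 ± 0.70 from Ccr2+-like (adjusted p = 0.0114), 3.96 ± 0.69 from Pecam1+-like (adjusted p = 0.00265) and 4.57 ± 0.71 from Apoe+-like cells (adjusted p = 0.000975). Without tumor 2 the calls against Pecam1+-like cells were lost for Nlrp3 (adjusted p = 0.0768) and for Il1b (adjusted p = 0.0719).

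Casp1, the protease downstream of that sensor, had its levels the other way round. Neutrophil-like cells had 14.96, 7.36 and 22.4 CPM on 11, 1 and 1 UMIs, Ccr2+-like cells 62.6, 65.1 and 34.9 CPM, Pecam1+-like cells 77.9, 25.2 and 58.2 CPM, and Apoe+-like cells 40.9, 0 and 14.4 CPM. Neutrophil-like sums lay below all Ccr2+-like and Pecam1+-like sums and overlapped those of Apoe+-like cells. No Casp1 comparison with neutrophil-like cells passed the test (adjusted p = 0.285, 0.282 and 0.823 against Ccr2+-like, Pecam1+-like and Apoe+-like cells). With each tumor as a block, Casp1 was lower than in Pecam1+-like cells (-1.80 ± 0.58, adjusted p = 0.0314).

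Il18, the other cytokine that caspase-1 matures, stood at 20.4, 14.7 and 22.4 CPM in neutrophil-like cells on 15, 2 and 1 UMIs. It was at 97.7, 152 and 81.5 CPM in Ccr2+-like, 62.2, 94.6 and 31.04 CPM in Pecam1+-like and 46.6, 87.3 and 23.1 CPM in Apoe+-like cells. Every neutrophil-like sum lay below every macrophage sum. Il18 was lower than in Ccr2+-like cells by the test (-2.10 ± 0.61, adjusted p = 0.0469), but 11 of 14 alternative settings lost this call, with adjusted p from 0.00241 to 0.301. Against the subset mean the difference was -1.48 ± 0.53 (adjusted p = 0.0678), and with each tumor as a block it passed (-1.50 ± 0.41, adjusted p = 0.00858). It did not pass against Pecam1+-like (-1.25 ± 0.59, adjusted p = 0.236) or Apoe+-like cells (-1.09 ± 0.59, adjusted p = 0.243).

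Il18bp, the soluble inhibitor of IL-18, was at 227, 630.4 and 199 CPM in Apoe+-like cells on 361, 130 and 69 UMIs. Neutrophil-like cells had 6.80, 7.36 and 0 CPM, Ccr2+-like cells 2.67, 0 and 0 CPM, and Pecam1+-like cells 3.57, 12.6 and 0 CPM. The Apoe+-like sums lay above those of every other class, and the highest among the others was 12.6 CPM. Il18bp was lower in neutrophil-like than in Apoe+-like cells (-5.35 ± 0.77, adjusted p = 0.000637). Both other subsets were also lower than Apoe+-like cells, by -6.99 ± 0.88 for Ccr2+-like (adjusted p = 0.00452) and -6.41 ± 0.77 for Pecam1+-like cells (adjusted p = 0.00172). These last calls were lost without tumor 2 (adjusted p = 0.145 and 0.0705) and without tumor 3 (0.120 and 0.0846), with log2 fold changes of at most -6.20 in each case. Apoe+-like cells thus carried both Il18, at a level that overlapped the other subsets, and the gene of its inhibitor, at a level that did not.

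**Figure D3:**
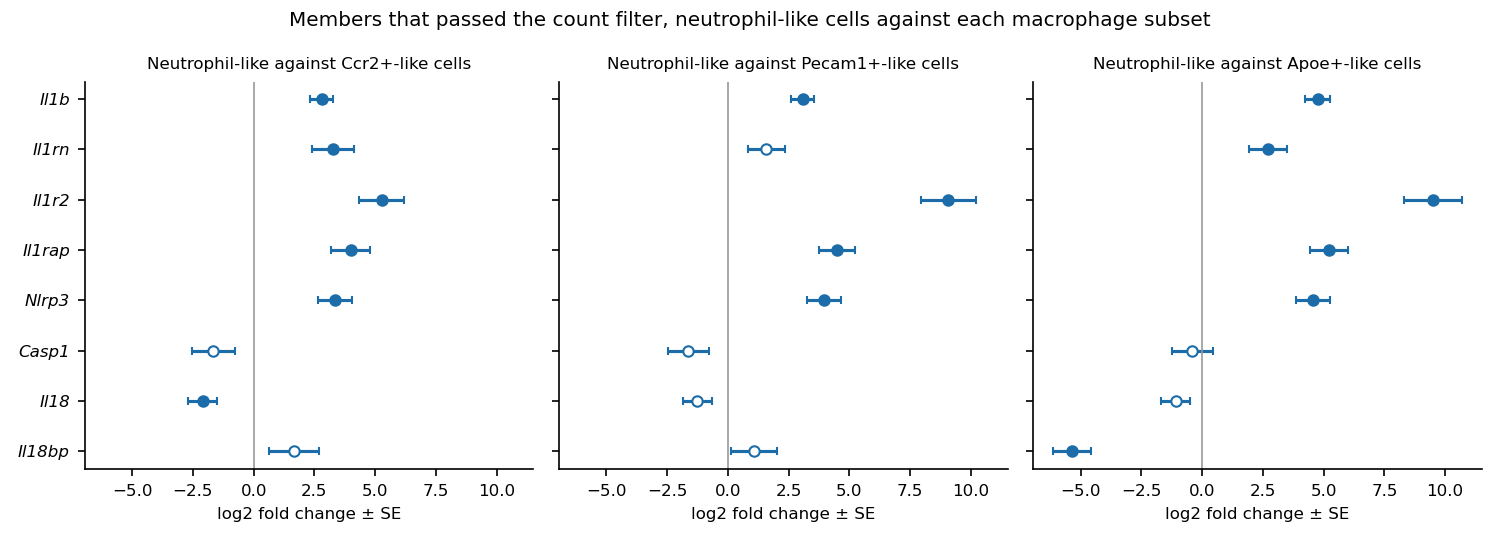
Fitted log2 fold change ± SE of the 8 tested members in neutrophil-like cells against each macrophage subset, with filled points for an adjusted p under 0.05 and open points for the rest. Il1b, Il1r2, Il1rap and Nlrp3 lie to the right of 0 in all 3 panels with filled points, Il18bp is filled on the left only against Apoe+-like cells, and the Il1r2 point in that panel rests on 3 UMIs in Apoe+-like cells.

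By subset, 5 of 8 tested members were higher and 1 lower (Il18) in neutrophil-like than in Ccr2+-like cells, where 3.98% of all genes were higher and 4.9% lower. Against Pecam1+-like cells 4 of 8 were higher and 0 lower (4.96% and 5.26% of all genes), and against Apoe+-like cells 5 were higher and 1 lower (9.02% and 7.73%). The Ccr2+-like sums of tumors 2 and 3 rest on 10 and 16 cells, and 0 members were called against this subset without tumor 2 or without tumor 3 by edgeR.

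Between Ccr2+-like and Pecam1+-like cells, edgeR called 0 of 8 members and 0 of 4776 genes (0.0%), with 235 genes at an unadjusted p under 0.05 and 42 genes called by DESeq2. With each tumor as a block 159 genes passed, and they included Il1r2 (higher in Ccr2+-like cells, 3.94 ± 0.89, adjusted p = 0.0152) and Il1rn (lower, -2.06 ± 0.45, adjusted p = 0.0125). Against Apoe+-like cells, 1 of 8 members was lower in Ccr2+-like and 1 in Pecam1+-like cells, in both cases Il18bp, where 0.565% and 1.24% of all genes were lower (0.0838% and 0.126% were higher). With the block, Il1b was also higher in Ccr2+-like (2.04 ± 0.38, adjusted p = 0.00202) and in Pecam1+-like cells (1.77 ± 0.37, adjusted p = 0.00321) than in Apoe+-like cells. So were Il1r2 in Ccr2+-like cells (4.47, adjusted p = 0.0104) and Il1rn in Pecam1+-like cells (1.31 ± 0.39, adjusted p = 0.0306). Of the Apoe+-like cells, 208 had a median of 1372 UMIs and formed a subcluster apart from the other 127, whose median was 12632 UMIs.

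All 12 classes were then fitted together, which tested 7812 genes and all 10 members, each class against the unweighted mean of the others. Plasmacytoid dendritic-like cells entered with 2 tumors, and NK-like cells with 1, which is assumed to vary like the rest. With 1 sum in the smallest class, a gene passed the filter of this fit by 1 high sum. Il1r2, Nlrp3, Il1rap and Il1a passed it only through neutrophil-like sums. Il1r1 passed only through CAF-like and Il18bp only through Apoe+-like sums. Calls of these members in those classes were favored by the filter, and counts that include them are descriptions. In neutrophil-like cells 6 of 10 members were higher (13.6% of all genes were), namely Il1r2 (adjusted p = 5.78e-12), Nlrp3 (2.67e-11), Il1b (1.97e-09), Il1rap (3.5e-08), Il1rn (2.93e-06) and Il1a (0.00839). Il1a rests on 12 UMIs there and was lost by DESeq2 (adjusted p = 0.398), without tumor 1 (0.0929) and without tumor 3 (0.134). In Apoe+-like cells 4 of 10 were higher (7.78% of all genes), namely Il18bp (4.17e-12), Il18 (0.000192), Il1a (0.0023) and Il1rn (0.044). The Il1rn call was lost in 6 of 14 alternatives (DESeq2 0.615, without tumor 2 0.0951, without tumor 3 0.104), and the Il1a call by DESeq2 (0.783).

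Ccr2+-like cells had 4 of 10 members higher (7.3% of all genes), namely Il18 (adjusted p = 1.72e-06), Il1b (3.04e-05), Nlrp3 (0.00337) and Il1r2 (0.0226). The Il1r2 call was lost by DESeq2 (0.321), without tumor 2 (0.0735), without tumor 3 (0.222) and with at least 20 cells (0.154), and the Nlrp3 call by DESeq2 (0.112) and without tumor 1 (0.127). In Pecam1+-like cells 3 of 10 were higher (8.26% of all genes), namely Il1b (5.05e-05), Il18 (7.07e-05) and Il1rn (0.00119), the last of which was lost by DESeq2 (0.126). Il1b was therefore above the mean of the other classes in neutrophil-like, Ccr2+-like and Pecam1+-like cells alike, and Il18 in the 3 macrophage subsets but not in neutrophil-like cells. In CAF-like cells 3 of 10 members were higher (16.5% of all genes), namely Il1r1 (adjusted p = 2.48e-09), Il18 (4.09e-05) and Il1rap (0.0362). Il1r1, which passed the filter only through CAF-like sums, was called in 14 of 14 alternatives. Il1rap was called in 6 of 13, with adjusted p up to 0.5. Il18 was called in 12 of 14, and its log2 fold change fell to 0.73 without integration of the tumors (adjusted p = 0.646).

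Endothelial-like cells had 1 of 10 members higher (12.1% of all genes), which was Il1r1 (adjusted p = 0.046). It rests on 8 UMIs and was lost without any 1 of the 3 tumors (adjusted p from 0.123 to 0.347). In tumor-like cells 2 of 10 members were lower (7.41% of all genes), Nlrp3 (adjusted p = 0.00543) and Casp1 (0.0107). In B cell-like, T cell-like, NK-like, plasmacytoid dendritic-like and erythroid-like cells 0 of 10 members were called by edgeR, where 2.61%, 2.0%, 1.96%, 4.89% and 0.973% of all genes were. The Il18 level in CAF-like cells, 49.2, 52.9 and 61.1 CPM, lay within the macrophage range. The CAF-like cluster showed 8 CAF markers and also 6 mesothelial markers. Without integration, an unnamed cluster of 25 cells had the mesothelial markers Msln, Upk3b and Krt19 among its top genes. The part of mesothelial-like cells in the levels given for CAF-like cells was not tested. With each tumor as a block, 12 further calls passed. Of these, Il1b was higher in Apoe+-like cells and lower in plasmacytoid dendritic-like, CAF-like, tumor-like, B cell-like and T cell-like cells. Casp1 was higher in Ccr2+-like (adjusted p = 0.00172) and Pecam1+-like cells (adjusted p = 4.7e-05), Il1rn in Ccr2+-like cells, Il1a and Nlrp3 in Pecam1+-like cells, and Nlrp3 was lower in CAF-like cells. The block also raised the number of genes called in every myeloid comparison. Its share over all genes is not given for the fit of all classes, so these 12 calls are a description.

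The share of each gene's UMIs that a class held depends on its number of cells and on their depth as well as on its level. Neutrophil-like cells were 12.6%, 4.59% and 0.875% of the kept cells of tumors 1, 2 and 3. They held 54.4% (95% interval 53.6 to 55.3), 73.4% (70.6 to 76.0) and 34.6% (31.4 to 37.9) of all Il1b UMIs. Of Il1r2 UMIs they held 90.9%, 94.5% and 75.8%, and of Nlrp3 UMIs 63.5%, 81.6% and 24.4%. In tumor 3, where they were rarest, Pecam1+-like cells held more of the Il1b (42.3%) and of the Nlrp3 UMIs (36.6%). CAF-like cells held 75.3% ± 11.99 (SD, n = 3 tumors) of Il1r1, Apoe+-like cells 83.2% ± 12.04 of Il18bp and Pecam1+-like cells 40.7% ± 11.3 of Casp1. Il18 was divided between Ccr2+-like (25.9% ± 17.4), Pecam1+-like (23.9% ± 3.81), Apoe+-like (22.9% ± 10.4) and CAF-like cells (17.8% ± 8.03).

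**Figure D4:**
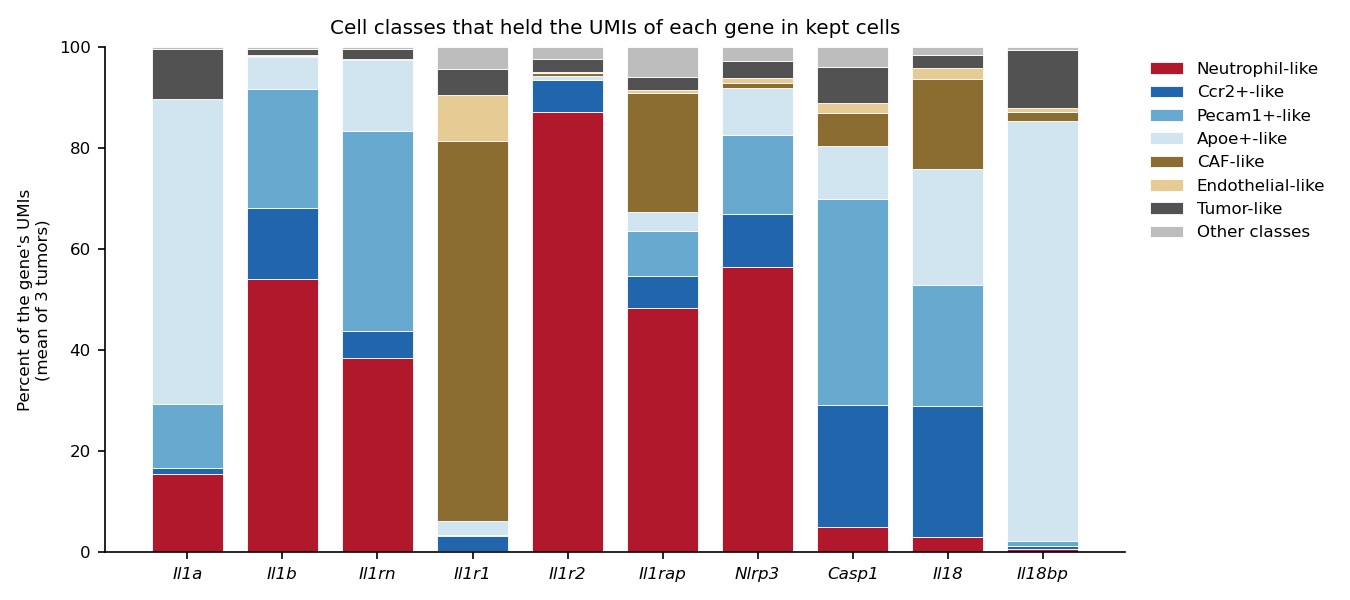
Percent of each member's UMIs in kept cells that each class held, as the mean of the 3 tumors. Neutrophil-like cells hold the largest part of Il1b, Il1r2, Il1rap and Nlrp3, CAF-like cells of Il1r1 and Apoe+-like cells of Il1a and Il18bp.

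In single cells, shares with a UMI were compared after each cell was thinned to 500 UMIs, which left out 0 cells. Il1b was found in 224 of 242, 38 of 56 and 20 of 22 neutrophil-like cells, or 92.6%, 67.9% and 90.9%. Among tumor-like cells, taken as background (median 1647.5 UMIs before thinning), it was found in 5.04%, 0.213% and 0.529%. Ccr2+-like cells stood at 29.2%, 30.0% and 31.2%, Pecam1+-like cells at 28.0%, 16.7% and 37.9%, and Apoe+-like cells at 13.7%, 11.5% and 1.65%. Without thinning, 97.9%, 83.9% and 95.5% of neutrophil-like cells had an Il1b UMI. Most neutrophil-like cells thus had Il1b, at medians of 5, 2 and 3 UMIs per 500, and the richest 10% of them held 25.9%, 35.8% and 29.3% of the Il1b UMIs of the class. The lowest share and median were those of tumor 2.

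Il1r2 was found in 63.2%, 39.3% and 22.7% of thinned neutrophil-like cells and in 1.008%, 0% and 0% of tumor-like cells. Nlrp3 was found in 27.3%, 10.7% and 9.09%, and Il1rn in 15.3%, 5.36% and 13.6% of neutrophil-like cells. In tumor-like cells Nlrp3 was found in 0.252%, 0% and 0.144%, and Il1rn in 1.51%, 0% and 0%. Tumor 1 had the highest share for each of these genes. Both Il1b and Il1r2 were found in 143 of 242, 17 of 56 and 4 of 22 cells. Among neutrophil-like cells with Il1b, 63.8%, 44.7% and 20% had Il1r2, and among the 18, 18 and 2 cells without Il1b, 10, 5 and 1 had it. Il18bp was found in 8.50%, 6.56% and 6.61% of Apoe+-like cells, against 0.504%, 0% and 0.336% of tumor-like cells. A 0 among 938 cells allows a share of cells with a UMI of up to 0.32% by the limit of 3 counts, and among 2081 cells of up to 0.144%, which does not limit the share of cells that express the gene.

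**Figure D5:**
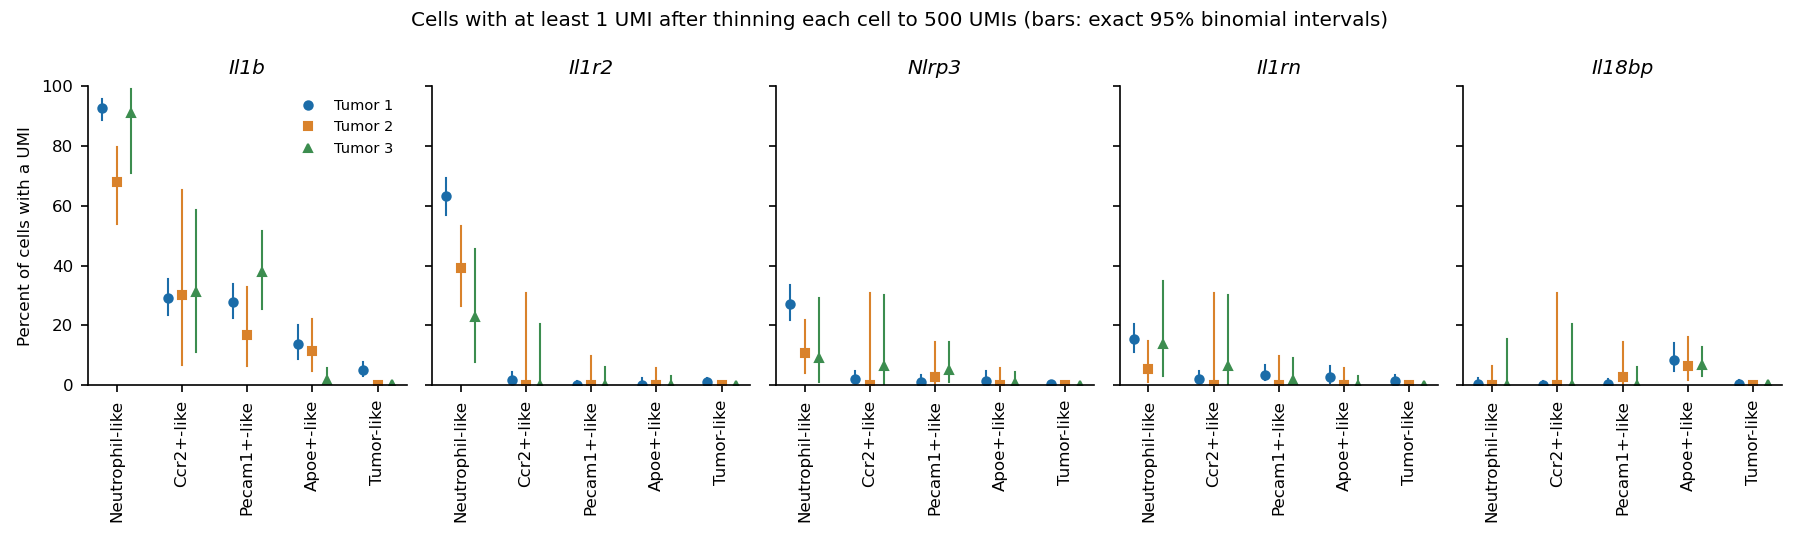
Percent of cells with at least 1 UMI of 5 members after thinning to 500 UMIs, by class and tumor, with exact 95% binomial intervals as bars. Il1b reaches 67.9% to 92.6% of neutrophil-like cells and at most 37.9% of the cells of a macrophage subset.

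Of the other IL-1 family ligands and receptors, 2 of 13 listed genes passed the filter in the myeloid fit, Il1f9 and Il18rap. Both passed only through the neutrophil-like sums and had to differ, so their values are a description. Il1f9, encoding the ligand IL-36γ, stood at 115 ± 104 CPM (SD, n = 3) in neutrophil-like cells, against 2 UMIs in all macrophage sums. Il18rap, a chain of the IL-18 receptor, stood at 142 ± 85.1 CPM, against at most 11.6 CPM in any macrophage sum. In the fit of all classes, Il18rap and Il18r1 were higher in neutrophil-like cells (adjusted p = 1.56e-07 and 0.0196). They were not particular to this class, since both were also higher in NK-like cells and Il18r1 in T cell-like cells. Il33, an alarmin of stromal cells, was higher in CAF-like cells (82.7 ± 48.1 CPM, adjusted p = 1.62e-07).

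Of 21 inflammasome sensors, adaptors, caspases and pore proteins, 9 passed the filter, and 2 were higher and 1 lower in neutrophil-like cells than in the subset mean, where 10.1% of all genes were higher and 8.0% lower. Their median log2 fold change was -0.31, against -0.05 over all genes tested. Nlrp12, a sensor of the NLRP family, was at 77.7 ± 31.4 CPM in neutrophil-like cells, against 2 UMIs in all macrophage sums, and is 1 of the 2, although it passed the filter only through the neutrophil-like sums. Gsdme, a pore protein cut by caspase-3, was at 119 ± 7.30 CPM, and the macrophage sums ranged from 13.9 to 75.6 CPM (2.24 ± 0.42, adjusted p = 0.00234). It was not particular to neutrophil-like cells, since in the fit of all classes Gsdme was also higher in tumor-like cells. The part of tumor cell transcripts in its neutrophil-like level was not tested. Pycard, the adaptor ASC, was the gene that was lower, at 20.4 to 22.4 CPM in neutrophil-like and 98.8 to 593 CPM in macrophage sums (-2.97 ± 0.57, adjusted p = 0.00258). It was lower than in each subset, by -2.72 ± 0.62 for Ccr2+-like (adjusted p = 0.0171), -3.64 ± 0.62 for Pecam1+-like (adjusted p = 0.00239) and -2.55 ± 0.61 for Apoe+-like cells (adjusted p = 0.0114). The narrow range of Pycard in neutrophil-like cells rests on few UMIs, since 22.4 CPM is the level of 1 UMI in tumor 3. Relative to the macrophage subsets, neutrophil-like cells thus had the higher level of the sensor Nlrp3 and the lower level of the adaptor, and the protease Casp1 had 13 UMIs in them.

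Of 24 genes of IL-1 receptor and NF-κB signaling, 16 were tested, and 5 were higher and 0 lower in neutrophil-like cells than in the subset mean. Of all genes 10.1% were higher and 8.0% lower. The median log2 fold change of the 16 was 0.52, against -0.05 over all genes tested. The 5 included Map2k3, a kinase upstream of p38 (2.38 ± 0.48, adjusted p = 0.00348), which passed the filter only with the neutrophil-like sums. Also higher were the NF-κB inhibitor Nfkbia (2.10 ± 0.42, adjusted p = 0.00353) and the NF-κB cofactor Nfkbiz (2.08 ± 0.45, adjusted p = 0.00551). So was Tnfaip3, which encodes the feedback inhibitor A20 (1.94 ± 0.56, adjusted p = 0.0299). Against Ccr2+-like, Pecam1+-like and Apoe+-like cells 0, 1 and 4 of the 16 were higher and 0 lower. Of all genes 3.98%, 4.96% and 9.02% were higher. Map2k3 was the 1 against Pecam1+-like cells and was among the 4 against Apoe+-like cells. Counts that include it are descriptions. Nfkbia and Nfkbiz are themselves transcribed on NF-κB activation, as is Tnfaip3.

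Of 20 genes that IL-1 is known to induce, 10 were tested, and 4 were higher and 0 lower in neutrophil-like cells than in the subset mean. Of all genes 10.1% were higher and 8.0% lower. The median log2 fold change of the 10 was 1.52, against -0.05 over all genes tested. The chemokine Cxcl2 was at 6418 ± 1206 CPM, against 31.7 to 695 CPM in the macrophage sums (4.69 ± 0.52, adjusted p = 4.6e-05). Cxcl3, a related chemokine for neutrophils, was at 118 ± 84.0 CPM, against 12 UMIs in Ccr2+-like cells and 0 in the other subsets, and it too passed the filter only through the neutrophil-like sums. Ptgs2, the inducible cyclooxygenase (3.87 ± 0.63, adjusted p = 0.000947), and the feedback inhibitor Socs3 (1.57 ± 0.38, adjusted p = 0.0106) were the others. Of these 10 genes, 2, 3 and 4 were higher against Ccr2+-like, Pecam1+-like and Apoe+-like cells, where 3.98%, 4.96% and 9.02% of all genes were. These counts and the 4 against the subset mean include Cxcl3 and are descriptions. Between macrophage subsets edgeR called 0 of the 37 listed genes tested, where it called few genes of any kind (0 of 4776 between Ccr2+-like and Pecam1+-like cells, and 31 and 65 against Apoe+-like cells).

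Among CAF-like cells, the class with the highest Il1r1 level, 14 of the 20 IL-1-induced genes were tested in the fit of all classes, and 7 were higher and 1, Ccl4, lower, where 16.5% of all genes were higher. Cxcl1 (a neutrophil chemokine), named with the next genes and Il33 outside the rule after their values were seen, was at 871 ± 947 CPM (adjusted p = 1.52e-11), the monocyte chemokine Ccl2 at 1229.9 ± 1557 CPM (adjusted p = 2.24e-08) and Il6 at 94.1 ± 90.9 CPM (adjusted p = 8.85e-07). Csf3, Cxcl2, Socs3 and Ptgs2 were the others. The part of mesothelial-like cells in these CAF-like levels was not tested. Neutrophil-like cells had 11 of these 14 genes higher in the same fit and 0 lower, where 13.6% of all genes were higher. Ccr2+-like cells had 6 higher (7.3% of all genes) and Pecam1+-like cells 4 (8.26%), on 3 and 1 Il1r1 UMIs. Endothelial-like cells had 3 higher (12.1%) and Apoe+-like cells 1 (7.78%). A high count was thus not particular to the class with the most Il1r1. Other signals induce these genes too, and these counts do not separate a response to IL-1 from a response to another signal.

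Across the 12 myeloid sums, the genes with the pattern most like that of Il1b, by Pearson correlation of log2 CPM among the 4776 genes, were 2310001H17Rik (0.969), Pim1 (0.969), Nfe2 (0.966), Lyst (0.965) and Sntb2 (0.957). For Il1rn they were Zfp281 (0.946), Kmt2e (0.946) and Pilra (0.941), and for Il18 Mrpl1 (0.901), Tmem109 (0.876) and Nipa2 (0.870). These sums share 3 animals and differ in depth, from 44646 to 2620379 UMIs, so the values are a description only.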

How the data were processed

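Whole TH-MYCN tumors were cut, digested with Liberase and DNase, filtered and run on the 10x Chromium 3′ v3.1 platform, 1 library per tumor. Per the labels, the deposited raw files hold UMI counts per gene and barcode (Cell Ranger 3.1.0 and build mm10 in the submitters' processing notes). The authors also deposited normalized files in natural log units, the log of 1 plus a count corrected for ambient RNA, from which they had removed doublets and barcodes outside limits on coverage, genes and mitochondrial share (Seurat 3.1.5 is named). The values of these files bore this reading out, since the exponential less 1 was whole throughout. No further doublets were removed here.

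Raw counts of the kept barcodes were clustered after integration of the tumors (R 4.3.3, Seurat 5.3.0, 2000 variable genes without the members and 78 listed genes, 30 dimensions, 20 neighbors, resolution 1, and 0.5 for macrophages). A cluster was named where at least 3 markers of a fixed list were 2-fold up and in 10% of its cells. Names are rebuilt and may differ from those of the study. Counts were summed per tumor and class of at least 10 cells (44646 to 2620379 UMIs per myeloid sum) and tested with edgeR 4.0.16 (filterByExpr, TMM, quasi-likelihood test, Benjamini-Hochberg adjusted p under 0.05). The procedure was run on simulated data. Those sums were drawn independently, with no effect shared within a tumor, so the run cannot show how the unblocked fit behaves on sums that share a mouse. DESeq2 1.42.0 was an alternative, as were other filters, clusterings, sums of at least 20 cells, corrected counts, each tumor left out and each tumor as a block. Library totals without TMM factors, Apoe+-like cells without their low-depth subcluster and a minimum count of 3 were chosen after seeing the data.

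Sums with the same tumor number share an animal. Deviations of sums from their class means correlated at 0.1876 to 0.742 within a tumor (18 pairs) and at -0.5418 to 0.3055 between tumors (36 pairs), so the block pairs the sums. The blocked value is printed only where it changes a call. The p-values without the block measure the spread between sums of the same class from 3 mice, shared over the classes. They treat sums of the same mouse as independent.

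The members and gene lists were chosen with earlier results of these data known. All members were reported, and of each list at most 4 called genes per direction, the ones that changed most by fold and moved the same way in every tumor. The 5 genes most like Il1b and the 3 most like Il1rn and Il18 were named. Gene positions came from GENCODE M21 and promoters from RefSeq.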

Additional observations from a re-analysis of the deposited data

Results flagged for a closer look

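Raw counts in the barcodes that the authors did not keep entered no comparison, and each member had more than 3 UMIs there. These barcodes held 594 Il18bp UMIs (47.6% of all Il18bp UMIs in the raw files), 514 of Il1b (3.22%), 216 of Il18 (24.9%), 128 of Il1r1 (39.4%), 94 of Il1r2 (5.06%), 89 of Il1rn (8.40%), 76 of Il1rap (20.2%), 64 of Casp1 (11.1%), 29 of Nlrp3 (3.77%) and 27 of Il1a (19.7%). The order of these shares differed between tumors. Il1r1 had 41.99% in tumor 1 (118 UMIs) and 4.55% in tumor 2 (1 UMI), where Il1a had the highest share at 33.3% (5 UMIs). For Il18bp the share was 40.5% in tumor 1 and 25.1% in tumor 2, and it reached 72.7% in tumor 3, with 264 UMIs in barcodes that were not kept against 99 in kept cells. Their median depth was 925 UMIs in tumor 1, 5351.5 in tumor 2 and 3703 in tumor 3, whereas kept cells had 4282.5, 1594 and 1816. Which cells these barcodes hold was not tested.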

How the results depend on the processing

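Of 770 repeats of the myeloid member tests, 696 kept direction and call, 41 lost the call, 19 gained it and 14 reversed. Of 322 repeats on called members 281 stayed called. The count of members higher or lower in neutrophil-like cells was 5 against the subset mean (4 to 5 with a tumor left out), 6 against Ccr2+-like (0 to 4, and 0 with at least 20 cells, where only tumor 1 is left), 4 against Pecam1+-like (2 to 4) and 6 against Apoe+-like cells (5 to 6). Between subsets it was 0 for Ccr2+-like against Pecam1+-like (2 with the replicate block). It was 1 for Ccr2+-like against Apoe+-like cells (2 with DESeq2, 3 with the block, 0 with at least 20 cells, 2 without TMM factors, 3 without the low-depth subcluster, 0 to 2 with a tumor left out). It was 1 for Pecam1+-like against Apoe+-like cells (3 with the block, 2 without TMM factors, 0 to 3 with a tumor left out). The classes against all others gave 23 calls (35 with the block, 16 to 18 with a tumor left out). For this fit the share of all genes called is not given under these alternatives, so their counts are descriptions. Apart from the calls named with the results above, the block changed no other member's call. Neutrophil-like calls against Ccr2+-like cells were lost for every member without tumor 2 (Il1b adjusted p = 0.0935) and without tumor 3 (0.0754), and Il1rap also without tumor 1 (0.112), by edgeR.

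Genes called against the subset mean numbered 863 (1567 with the block, 437 to 535 with a tumor left out). Against Ccr2+-like cells it was 424 (block 1129, resolution of 0.6 240, at least 20 cells 177, tumor left out 0 to 327), against Pecam1+-like cells 488 (block 1067, corrected counts 322, tumor left out 90 to 469) and against Apoe+-like cells 800 (block 1527, tumor left out 246 to 560). Ccr2+-like against Pecam1+-like cells gave 0 (DESeq2 42, no filter 40, block 159, resolution of 1.5 1, no integration 2, corrected counts 7, no TMM factors 24, without the low-depth subcluster 24, tumor left out 0 to 15). Ccr2+-like against Apoe+-like cells gave 31 (DESeq2 66, no filter 64, block 274, resolution of 1.5 19, at least 20 cells 0, without the low-depth subcluster 53, tumor left out 0 to 67). Pecam1+-like against Apoe+-like cells gave 65 (DESeq2 107, block 599, no TMM factors 103, without the low-depth subcluster 117, tumor left out 0 to 310).

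Reversed log2 fold changes, none of them called, were those of Casp1 in Ccr2+-like against Pecam1+-like cells (-0.017 without a filter, -0.20 with the block, -0.28 to 0.20 with a tumor left out, -0.019 without integration, -0.040 without TMM factors, -8.39e-05 with a minimum count of 3). Others were Il1b (-0.12) and Il18bp (0.058) in the same comparison at a resolution of 1.5, and Il1rn in Ccr2+-like against Apoe+-like cells with at least 20 cells (0.13). In Pecam1+-like against Apoe+-like cells they were Il1r2 (-2.56 to 2.13 with a tumor left out, -1.56 with corrected counts) and Il18 (-0.36 at a resolution of 0.6, -0.15 at 1.5, -0.33 without the low-depth subcluster). Il1r1 in endothelial-like cells was at -2.45 with corrected counts. The cause was not tested.

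Without TMM factors the median log2 fold change of all genes moved from -0.05 to -0.23 against the subset mean, from 0.01 to -0.17 against Ccr2+-like and from -0.09 to -0.33 against Pecam1+-like cells. The split of higher against lower genes moved from 481 and 382 to 405 and 567 against the subset mean and from 237 and 251 to 225 and 460 against Pecam1+-like cells. It moved from 6 and 59 to 39 and 64 (26 and 81 with DESeq2) for Pecam1+-like against Apoe+-like cells, from 4 and 27 to 11 and 28 (19 and 47 with DESeq2) for Ccr2+-like against Apoe+-like cells, and from 1066 and 123 to 871 and 310 for neutrophil-like cells against all classes. In neutrophil-like cells depth limits Il1r1, Il18bp, Il1a and Casp1 most, with 1, 6, 12 and 13 UMIs.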
